A study of Mus musculus with 7 samples.

Results

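The ATF4 response and the amino acid genes around it were examined in mouse melanoma cells and mouse dermal endothelial cells. The members are 36 genes, taken from a fixed list of symbols that covers the ATF4 and CHOP response, serine, glycine and proline synthesis, amino acid transporters and aminoacyl-tRNA synthetases. Of these, 34 had a probe set of their own among the 19938 genes measured. Pycr1 had no probe set under its own symbol, and the probe set of Aars is annotated to a second gene as well. Neither was analysed here as a member outside the promoter search.

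Expression was read on single-channel Affymetrix Mouse Gene 1.0 ST arrays, with 1 array for each of 7 samples. MDEC, the mouse dermal endothelial cells, gave 1 array. Clones A2, A3, A4 and A5 of B16F10, a pigmented mouse melanoma line, are labelled PECAM1+ (n = 4), and clone A1 and the uncloned parental B16F10 cells are labelled PECAM1− (n = 2). All cells grew in DMEM, with serum for B16F10 and with an endothelial growth supplement for MDEC, so cell type and medium cannot be told apart in any value that sets MDEC against B16F10. No gene was altered and no agent was given, as far as the labels say. PECAM1 is an endothelial and leukocyte adhesion receptor, and the labels do not say how the clones were derived or whether they arose independently.

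Pecam1 was at 11.00 to 11.07 log2 units in the PECAM1+ clones, at 5.43 in clone A1 and at 5.27 in parental cells, as labelled. The 7 melanocyte markers had a median of 6.16 log2 units in MDEC and of 12.1 to 12.5 in the 6 B16F10 arrays, and the 7 endothelial markers one of 11.1 in MDEC and of 4.86 to 5.08 in B16F10. Among 4 leukocyte markers, Ptprc, Cd3e and Itgam were between 4.84 and 6.51 in MDEC, close to their B16F10 levels, while Lyz2 was at 11.8 in MDEC and at 4.78 to 8.03 in B16F10. Clone A1 stands apart among the B16F10 arrays: 1271 genes differed 2-fold or more between it and the average of the remaining 5, against 31 to 144 genes for each of those arrays. Proliferation markers were low in it: the 7 measured ones lay between 6.09 and 8.60 in clone A1, between 9.85 and 11.9 in the PECAM1+ clones and between 9.98 and 11.7 in parental cells. MDEC were also low, at 7.20 to 9.32. Summed on the linear scale of the values, the 7 genes gave 2050 in MDEC, 12800 to 14600 in the PECAM1+ clones, 1120 in clone A1 and 14500 in parental cells. The part of these markers in the results below was not tested.

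Cells that run short of an amino acid, or that accumulate unfolded protein, phosphorylate the initiation factor eIF2 alpha, which slows translation in general and lets the mRNA of ATF4 be translated. ATF4 is a transcription factor of the bZIP family that pairs with C/EBP proteins and switches on genes for amino acid uptake, amino acid synthesis and tRNA charging. It also induces CHOP, encoded by Ddit3, and under prolonged stress the pair turns on inhibitors of the response and genes linked to cell death. ATF4 itself is set largely at translation, which an array does not measure. In melanoma the pathway is known for its link to nutrient stress and to slowly dividing states.

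Many ATF4 targets carry a composite site for a C/EBP and an ATF protein, whose core reads TGATGNAA. That core was searched on both strands in the RefSeq promoter windows (build GRCm38.p6), which run from 250 bases before to 50 bases after the annotated start. It was present for 10 of the 31 members that have a window (32.3%) and for 1219 of 27025 genes in all (4.51%). The 10 members were Atf3, Trib3, Chac1, Nupr1, Vldlr, Asns, Pycr1, Slc1a4, Aars and Gars. Of these, Pycr1 and Aars had no probe set of their own and so no call. Among all genes with a window, the core was present for 3.25% of those called lower in the PECAM1+ clones than in clone A1 and for 2.74% of those called higher. Among the measured members, 4 of the 16 lower in the PECAM1+ clones held it and 0 of the 5 higher. So did 4 of the 8 measured members with a window that passed in neither direction (3.78% of all such genes held it). The members were listed as ATF4 targets, so an excess of this core is not independent of the choice. A match is a description of the letters and not a measured binding site, and no match says only that these letters are not in the window.

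The 220 bases before the start are shown for 4 members, Atf3, Nupr1 and Asns, which are lower in the PECAM1+ clones than in clone A1, and Chac1, whose highest value was in MDEC. Capitals mark the core on either strand. Each sequence is given 5′ to 3′ on the strand of its gene. The Atf3 window is chr1:191183334-191183553 on the minus strand, Nupr1 chr7:126625471-126625690 on the minus strand, Asns chr6:7693210-7693429 on the minus strand, and Chac1 chr2:119351022-119351241 on the plus strand.
Atf3: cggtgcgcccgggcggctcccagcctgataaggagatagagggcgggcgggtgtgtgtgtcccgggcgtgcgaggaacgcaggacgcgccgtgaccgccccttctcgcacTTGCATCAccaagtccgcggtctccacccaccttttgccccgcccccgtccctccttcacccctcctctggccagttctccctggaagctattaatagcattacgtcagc
Nupr1: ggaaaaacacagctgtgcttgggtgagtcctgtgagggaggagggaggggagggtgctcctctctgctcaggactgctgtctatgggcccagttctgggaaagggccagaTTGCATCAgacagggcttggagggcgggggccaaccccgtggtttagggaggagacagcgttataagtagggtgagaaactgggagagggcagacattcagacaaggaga
Asns: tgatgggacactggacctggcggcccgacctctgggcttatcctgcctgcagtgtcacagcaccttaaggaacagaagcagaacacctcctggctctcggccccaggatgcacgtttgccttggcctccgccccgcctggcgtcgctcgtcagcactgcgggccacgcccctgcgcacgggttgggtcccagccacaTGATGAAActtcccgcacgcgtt
Chac1: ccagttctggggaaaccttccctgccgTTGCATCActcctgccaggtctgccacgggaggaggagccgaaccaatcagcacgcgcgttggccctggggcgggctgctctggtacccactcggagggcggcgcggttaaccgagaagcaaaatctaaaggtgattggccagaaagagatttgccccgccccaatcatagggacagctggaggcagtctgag

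Counted from the annotated start along the gene, the first base of the core lay at −110 in both Atf3 and Nupr1 and at −193 in Chac1, on the opposite strand in all of them. In Asns it lay at −23 on the gene's own strand. Trib3 held it at 14, after the start and so in the part not shown. With TGATGCAA alone, the form most often drawn for this site, 7 members (22.6%) and 1.03% of all genes held a match, and Asns, Trib3 and Gars did not.

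The first comparison asked whether the members differ between PECAM1+ and PECAM1− samples. No member passed the limma test, which called 0 of 34 at an adjusted p under 0.05 and 0.0100% of all genes. An unadjusted p under 0.05 was reached by 5 members (14.7%), Asns, Mthfd1l, Aldh18a1, Slc7a5 and Slc38a2, and by 9.18% of all genes. The median difference of the members, PECAM1+ minus PECAM1−, was −0.26 log2 units, where that of all genes was 0.00. The PECAM1− samples, clone A1 and parental cells, lay far apart in many members, as the plot of values by array shows. Without parental cells, which leaves clone A1 alone as PECAM1−, the median difference of the members was −0.63. That comparison is described below. In bulk samples like these, fewer cells of a kind and less RNA per cell cannot be told apart.

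In 5 members all 4 PECAM1+ clones lay below both PECAM1− samples (Cebpg, Asns, Aldh18a1, Slc7a5 and Slc38a2), as they did in 8.68% of all genes, and in 2 members above both (Mthfd1l and Slc7a1), as in 7.73% of all genes. Values are given for the 3 enzymes among them. Asns encodes asparagine synthetase. It was at 11.45, 11.61, 11.27 and 11.42 in clones A2 to A5, at 12.13 in clone A1 and at 11.78 in parental cells, a difference of −0.52 ± 0.13 (SE; limma adjusted p = 0.433). Aldh18a1, whose product starts proline synthesis, was at 9.76, 9.86, 9.89 and 9.73 in clones A2 to A5, at 10.41 in clone A1 and at 10.11 in parental cells (−0.45 ± 0.11, adjusted p = 0.432). Mthfd1l, which encodes an enzyme of mitochondrial folate metabolism that releases formate, ran the other way. Its values were 9.95, 10.05, 10.10 and 9.96 in clones A2 to A5, 8.77 in clone A1 and 9.60 in parental cells (0.83 ± 0.23, adjusted p = 0.436). None of these 7 members passed over all genes.

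**Figure D1:**
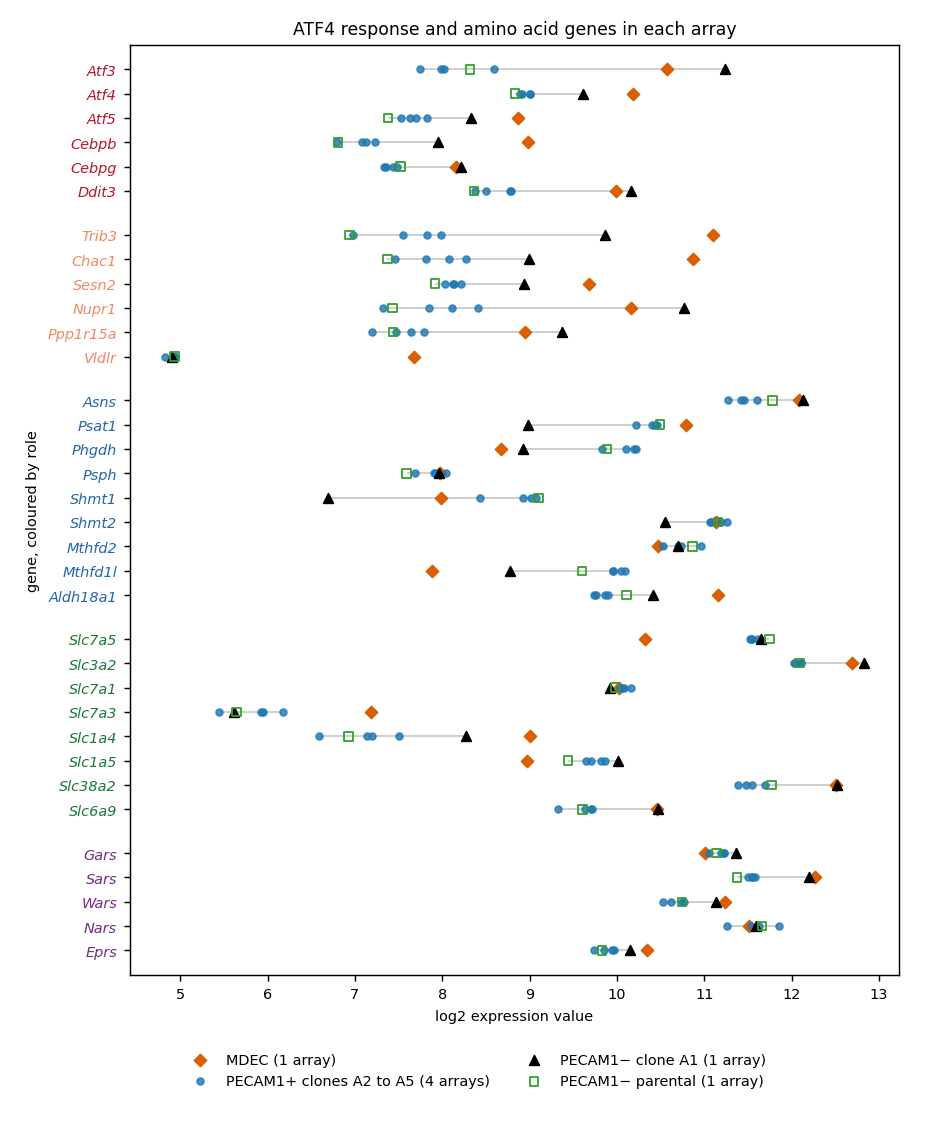
Log2 expression value (x axis) of the 34 measured members (y axis, coloured by role) in each of the 7 arrays, with a grey line over the range of the 6 B16F10 arrays. Clone A1 is the highest B16F10 array for all 6 stress transcription factors and the lowest for Psat1, Phgdh, Shmt1, Shmt2 and Mthfd1l, while parental cells lie within or near the 4 PECAM1+ clones.

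Against parental cells alone, the PECAM1+ clones differed little in these genes. Limma called 0 of 34 members, and 0.0100% of all genes, with 5 members (14.7%) and 13.5% of all genes at an unadjusted p under 0.05. The median difference, PECAM1+ minus parental, was 0.07. The lowest adjusted p was 0.196, for Mthfd1l at 0.41 ± 0.08 (SE). Parental cells are 1 array, so the spread in this fit is that of the 4 clones. Trib3 had a difference of 0.65 ± 0.43 and Chac1 one of 0.54 ± 0.34, neither past the test (adjusted p = 0.683 and 0.659).

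Clone A1 was where the members parted. Of the 34, 16 were lower in the PECAM1+ clones than in clone A1 at a limma adjusted p under 0.05, where 11.2% of all genes were, and 5 were higher, where 9.33% of all genes were. The median difference, PECAM1+ minus clone A1, was −0.63 log2 units over the members and 0.00 over all genes. Clone A1 was the highest of the 6 B16F10 arrays for 22 members (26.4% of all genes) and the lowest for 6 (28.9%). The fit takes the lone array of clone A1 to vary like the 4 clones. Its calls shrank when a clone was left out: 9, 9, 9 and 7 members passed as lower without A2, A3, A4 and A5, and 3, 2, 5 and 2 as higher. No called difference changed sign, and none could, because clone A1 lay outside the range of the 4 clones for every called member.

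All 6 stress transcription factors were lower in the PECAM1+ clones than in clone A1 (11.2% of all genes). Atf3, an early stress factor that can repress or activate its targets, was at 7.99, 8.60, 7.75 and 8.02 in clones A2 to A5, at 11.24 in clone A1 and at 8.32 in parental cells. Clone A1 lay far above every other B16F10 array, which overlapped each other. The PECAM1+ clones were below clone A1 by −3.15 ± 0.35 (SE; 8.88-fold, adjusted p = 0.0117). Ddit3, the CHOP gene, was at 8.49, 8.77, 8.79 and 8.38 in clones A2 to A5, at 10.16 in clone A1 and at 8.36 in parental cells, a difference of −1.56 ± 0.20 (2.94-fold, adjusted p = 0.0159). Again only clone A1 stood apart.

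The mRNA of Atf4 itself was lower as well. It was at 8.89, 9.01, 9.01 and 8.91 in clones A2 to A5, at 9.61 in clone A1 and at 8.84 in parental cells, a difference of −0.66 ± 0.08 from clone A1 (1.58-fold, adjusted p = 0.0125). Cebpg, a partner of ATF4, differed by −0.81 ± 0.08 (adjusted p = 0.00813), Cebpb, another C/EBP factor, by −0.89 ± 0.18 (0.0418) and Atf5, a relative of ATF4, by −0.66 ± 0.13 (0.0366). Cebpb was at 7.12, 7.23, 7.08 and 6.80 in clones A2 to A5, at 7.95 in clone A1 and at 6.81 in parental cells. Atf5 was at 7.63, 7.82, 7.70 and 7.53 in clones A2 to A5, at 8.33 in clone A1 and at 7.38 in parental cells. For each of these 4 genes, clone A1 was the highest B16F10 array.

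Of the 6 effectors below ATF4 and CHOP, 4 were lower in the PECAM1+ clones than in clone A1 and 0 were higher. The shares over all genes were 11.2% lower and 9.33% higher. Nupr1, a small stress-induced nuclear protein gene, was at 7.32, 8.40, 8.11 and 7.85 in clones A2 to A5, at 10.77 in clone A1 and at 7.43 in parental cells (PECAM1+ minus A1, −2.85 ± 0.45, 7.23-fold, adjusted p = 0.0235). Trib3 encodes a pseudokinase that restrains ATF4 and CHOP. It was at 6.98, 7.98, 7.83 and 7.55 in clones A2 to A5, at 9.87 in clone A1 and at 6.94 in parental cells (−2.29 ± 0.43, 4.87-fold, adjusted p = 0.0353). Ppp1r15a, or GADD34, brings a phosphatase to eIF2 alpha and so ends the response. Its levels were 7.64, 7.79, 7.20 and 7.47 in clones A2 to A5, 9.37 in clone A1 and 7.44 in parental cells (−1.84 ± 0.25, 3.58-fold, adjusted p = 0.0173). Parental cells lay within the range of the PECAM1+ clones for Nupr1 and Ppp1r15a and just below it for Trib3, while clone A1 was above all of them.

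Sesn2, a stress-induced inhibitor of mTORC1 that senses leucine, was at 8.03, 8.13, 8.12 and 8.21 in clones A2 to A5, at 8.94 in clone A1 and at 7.92 in parental cells (−0.82 ± 0.08, adjusted p = 0.0102). Chac1, whose product degrades glutathione, was at 7.46, 8.08, 8.27 and 7.82 in clones A2 to A5, at 9.00 in clone A1 and at 7.37 in parental cells. Its difference of −1.09 ± 0.34 did not pass (adjusted p = 0.108), and the clones spread over 0.81 log2 units. Vldlr, the very low density lipoprotein receptor gene, was between 4.82 and 4.94 in all 6 B16F10 arrays.

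**Figure D2:**
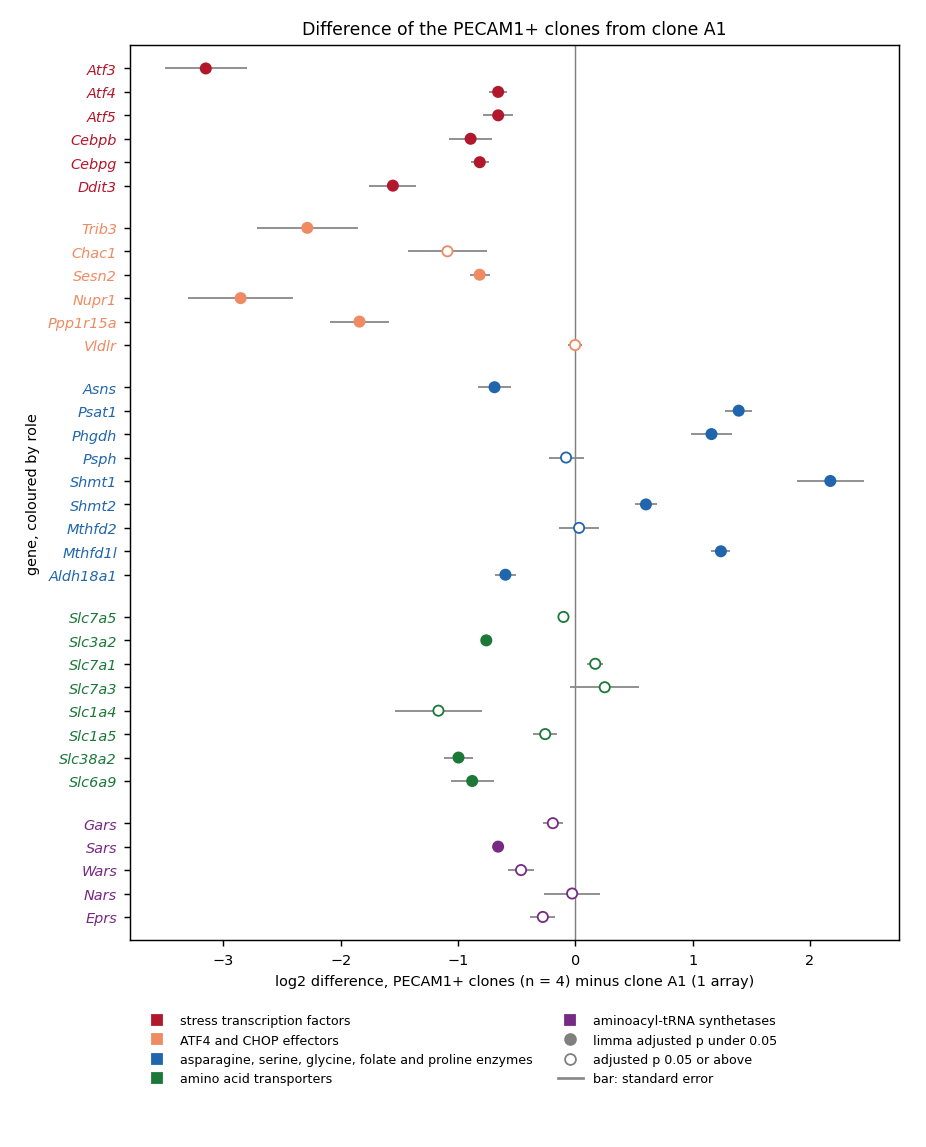
Log2 difference of the PECAM1+ clones (n = 4) from clone A1 (x axis) with its standard error for each member (y axis, coloured by role). Stress factors and effectors lie to the left, from −3.15 for Atf3 to near 0 for Vldlr, while Psat1, Phgdh, Shmt1, Shmt2 and Mthfd1l lie to the right, between 0.60 and 2.17.

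Of 9 measured enzymes, 5 were higher in the PECAM1+ clones than in clone A1 and 2 were lower. Over all genes, 9.33% were higher and 11.2% lower. The 5 belong to serine, glycine and folate metabolism (Psat1, Phgdh, Shmt1, Shmt2 and Mthfd1l), and the 2 to asparagine and proline synthesis. Phgdh, Psat1 and Psph encode the 3 steps from a glycolytic intermediate to serine. Psat1 was at 10.40, 10.46, 10.22 and 10.44 in clones A2 to A5, at 8.99 in clone A1 and at 10.49 in parental cells, a difference of 1.39 ± 0.12 (SE; 2.63-fold, adjusted p = 0.00668). Phgdh was at 10.10, 10.21, 9.83 and 10.19 in clones A2 to A5, at 8.92 in clone A1 and at 9.88 in parental cells (1.16 ± 0.17, 2.24-fold, adjusted p = 0.0214). Clone A1 was the lowest B16F10 array for both. Psph, the last step, was between 7.68 and 8.04 in the clones and at 7.96 in clone A1, and did not pass (adjusted p = 0.847).

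Serine hydroxymethyltransferase turns serine into glycine and loads a carbon on folate, in the cytosol through Shmt1 and in mitochondria through Shmt2. Shmt1 was at 9.08, 8.92, 8.43 and 9.02 in clones A2 to A5, at 6.69 in clone A1 and at 9.10 in parental cells. The difference of 2.17 ± 0.29 (4.51-fold, adjusted p = 0.0167) was the widest of the enzymes. Shmt2 differed by 0.60 ± 0.09 (adjusted p = 0.0237) and Mthfd1l by 1.24 ± 0.08 (2.36-fold, adjusted p = 0.00469). Mthfd2, which acts between them in mitochondria, was between 10.53 and 10.96 in the clones and at 10.70 in clone A1 (adjusted p = 0.948). Asns (−0.69 ± 0.14, adjusted p = 0.0403) and Aldh18a1 (−0.60 ± 0.09, adjusted p = 0.0198) were the 2 enzymes lower in the PECAM1+ clones than in clone A1.

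Of 8 transporters, 3 were lower in the PECAM1+ clones than in clone A1 and 0 were higher. Among all genes, 11.2% were lower and 9.33% higher. Slc3a2 encodes the heavy chain that carries several light chains to the membrane. It was at 12.11, 12.11, 12.04 and 12.02 in clones A2 to A5, at 12.83 in clone A1 and at 12.09 in parental cells (−0.76 ± 0.05, 1.69-fold, adjusted p = 0.00463). Slc7a5, its light chain for large neutral amino acids, was at 11.61, 11.54, 11.55 and 11.52 in clones A2 to A5, at 11.65 in clone A1 and at 11.74 in parental cells, a difference of −0.10 ± 0.05 that did not pass (adjusted p = 0.238). Slc38a2, a sodium-coupled carrier of small neutral amino acids, differed by −0.996 ± 0.13 (adjusted p = 0.0153) and the glycine transporter gene Slc6a9 by −0.88 ± 0.18 (0.0441). Slc1a4 was at 6.59, 7.50, 7.14 and 7.19 in clones A2 to A5, at 8.27 in clone A1 and at 6.92 in parental cells (−1.17 ± 0.37, adjusted p = 0.111). Slc1a5, Slc7a1 and Slc7a3, for glutamine and for cationic amino acids, had differences of −0.26, 0.17 and 0.25 and did not pass. Slc7a3 was at 5.45, 6.17, 5.92 and 5.94 in clones A2 to A5, at 5.62 in clone A1 and at 5.64 in parental cells.

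Among 5 measured aminoacyl-tRNA synthetases, which load amino acids on tRNA, only Sars passed, where 20.5% of all genes passed in either direction. This seryl-tRNA synthetase gene was at 11.50, 11.58, 11.55 and 11.54 in clones A2 to A5, at 12.20 in clone A1 and at 11.37 in parental cells (−0.66 ± 0.04, adjusted p = 0.00465). Wars (−0.46), Eprs (−0.28), Gars (−0.19) and Nars (−0.03) had adjusted p from 0.0631 to 0.974.

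Set directly against parental cells, which like it are labelled PECAM1−, clone A1 had 11 members higher (7.83% of all genes) and 4 lower (6.52% of all genes) by limma. Both are single arrays, and the spread is that of the 4 PECAM1+ clones. This comparison and the one above share clone A1. Atf3 was at 11.24 in clone A1 and 8.32 in parental cells (2.92 ± 0.44 SE, adjusted p = 0.0288), Nupr1 differed by 3.34 ± 0.56 (0.0357) and Trib3 by 2.93 ± 0.54 (0.0431). On the lower side were Shmt1 (−2.41 ± 0.36, adjusted p = 0.0287), Psat1 (−1.50 ± 0.15, 0.0124), Mthfd1l (−0.83 ± 0.10, 0.0197) and Shmt2 (−0.61 ± 0.12, 0.0488). Phgdh (−0.96 ± 0.22, adjusted p = 0.0675) and Asns (0.35 ± 0.17, 0.291) did not pass. Without A2, A3, A4 or A5 the higher members numbered 8, 3, 6 and 5 and the lower ones 2, 1, 4 and 1.

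Beyond the members, 76 genes of the pathway were measured, drawn from 6 lists by role. Of these, 12 were lower (11.2% of all genes) and 9 higher (9.33% of all genes) in the PECAM1+ clones than in clone A1 by limma. Their median difference was 0.05, where that of all genes was 0.00. Among 13 further ATF4 targets, 6 were lower and 1 higher. The cystine importer gene Slc7a11 was at 7.30, 8.23, 7.79 and 8.23 in clones A2 to A5, at 11.41 in clone A1 and at 5.80 in parental cells (PECAM1+ minus A1, −3.53 ± 0.43, adjusted p = 0.0139). Clone A1 was the highest, parental cells the lowest and the PECAM1+ clones between them, although the difference of 2.09 from parental cells did not pass (adjusted p = 0.206). Gadd45a, a stress gene of growth arrest, differed from clone A1 by −2.11 ± 0.20 (adjusted p = 0.00826). Klhl24 differed by −1.16 ± 0.22 (0.0363). Ddit4, which encodes the mTORC1 inhibitor REDD1, was the 1 target higher in the PECAM1+ clones than in clone A1 (1.24 ± 0.24, adjusted p = 0.0384). It was at 8.74, 8.99, 8.52 and 9.07 in clones A2 to A5, at 7.59 in clone A1 and at 7.89 in parental cells. Both PECAM1− samples thus lay below all 4 clones, as they did in 7.73% of all genes. The difference of 0.95 from parental cells did not pass.

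Upstream, 3 of 6 measured genes for eIF2 alpha kinases and their regulators were lower in the PECAM1+ clones than in clone A1. So were 11.2% of all genes. Impact, which restrains the amino acid sensing kinase GCN2, was at 10.18, 10.29, 10.13 and 10.26 in clones A2 to A5, at 11.95 in clone A1 and at 9.48 in parental cells (PECAM1+ minus A1, −1.73 ± 0.08, adjusted p = 0.00311). The gene of GCN2 itself, Eif2ak4, differed by −0.54 ± 0.11 (0.0424) and that of the endoplasmic reticulum kinase PERK, Eif2ak3, by −1.23 ± 0.10 (0.00706). The interferon-induced kinase gene Eif2ak2 did not pass (−0.65, adjusted p = 0.0701).

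Among 16 further amino acid enzymes, Prodh, which breaks down proline (1.51 ± 0.22, adjusted p = 0.0211), Mthfd1, the cytosolic folate enzyme (1.36 ± 0.17, 0.0143), and Mthfd2l (0.48 ± 0.09, 0.0349) were higher in the PECAM1+ clones than in clone A1 and 0 were lower. Got1 (−0.59) and Gcsh (0.56) did not pass. Of 14 further transporters, Slc43a1 and Slc6a6 were higher, by 1.10 and 1.07, and Slc43a2 and Slc36a1 lower. Slc38a3 did not pass, and the clones themselves lay anywhere between 6.55 and 8.68. Where 20.5% of all genes passed in either direction, so did 1 of 12 further cytosolic synthetases (Vars, 0.65 ± 0.05, adjusted p = 0.00704) and 3 of 16 mitochondrial ones, with Cars2 (0.96) and Sars2 (0.64) higher and Fars2 (−0.72) lower in the PECAM1+ clones. Lars, Hars, Qars and Yars2 did not pass.

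The PECAM1+ clones also differed among themselves. Over the 34 members the range of the 4 clones had a median of 0.30 log2 units, against 0.22 over all genes. It reached 0.5 for 9 members (26.5%), where 9.70% of all genes did. Nupr1 (range 1.09) and Trib3 (1.01) were the 2 members over 2-fold, followed by Slc1a4 (0.91), Atf3 (0.85), Chac1 (0.81) and Slc7a3 (0.72). Clone A3 was the highest PECAM1+ clone for 17 of the 34 members (20.7% of all genes). The lowest clone was most often A4, for 14 members (30.0% of all genes), and then A2, for 11 (23.4% of all genes).

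Clone A2 was the lowest clone for Trib3, Chac1, Nupr1, Slc1a4 and Slc7a3, and its values for Trib3 (6.98), Chac1 (7.46) and Nupr1 (7.32) were near those of parental cells (6.94, 7.37 and 7.43). Clone A4 was low in other members. Beside its 30.0% of all genes, it was the lowest clone for 6 of 9 enzymes and for 4 of 5 synthetases. Shmt1 was among these enzymes, at 8.43 in clone A4 against 8.92 to 9.08 in the other clones. Clone A4 was the highest clone for the remaining 3 enzymes, Psph, Mthfd1l and Aldh18a1, and for Ddit3 and Chac1 (8.27), beside 19.6% of all genes. Each clone is 1 array, so no test of a single clone was made.

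**Figure D3:**
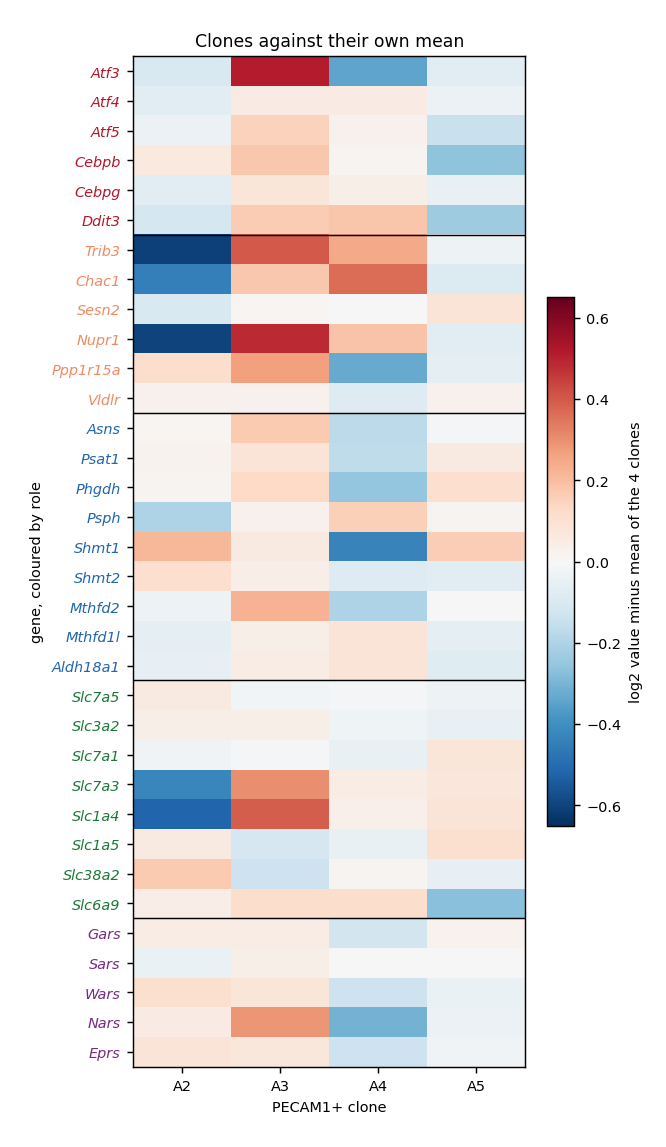
Log2 value of each member (rows, coloured by role) in each PECAM1+ clone (columns A2 to A5) minus the mean of the 4 clones. Clone A2 is low and clone A3 high for Trib3, Nupr1, Slc1a4 and Slc7a3. Clone A4 is low for most enzymes and synthetases but the highest clone for Psph, Mthfd1l and Aldh18a1.

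MDEC were set against B16F10 to place the endothelial cells in the same pathway. With 1 MDEC array there is no test, and a gene was counted when MDEC lay outside all 6 B16F10 arrays and 2-fold or more away from their centre, the average of the PECAM1+ and PECAM1− means. By that rule 10 members were higher in MDEC (6.40% of all genes) and 3 lower (6.86%). The median difference, MDEC minus B16F10, was 0.62 over the members and 0.00 over all genes. Since clone A1 takes part in the B16F10 range, the rule was also applied without it, which gave 14 members higher (6.90% of all genes) and 3 lower (7.96%).

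The stress factors and effectors led the higher side. Trib3 was at 11.10 in MDEC, against 6.94 to 9.87 in the B16F10 arrays (difference 3.11, 8.64-fold). Chac1 was at 10.87 in MDEC and at 7.37 to 9.00 in B16F10 (2.83, 7.09-fold). Vldlr, near 4.9 in every B16F10 array, was at 7.68 in MDEC (2.77, 6.80-fold). Cebpb (8.98 in MDEC and 6.80 to 7.95 in B16F10), Sesn2 (9.68 and 7.92 to 8.94), Atf5 (8.86 and 7.38 to 8.33) and Atf4 (10.19 and 8.84 to 9.61) also lay above all B16F10 arrays. That MDEC exceeded clone A1 for these 7 genes follows from the rule, because clone A1 is among the B16F10 arrays.

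Atf3 (10.58), Nupr1 (10.16), Ddit3 (9.99) and Ppp1r15a (8.94) were in MDEC below clone A1 but above every other B16F10 array. They are the 4 members that the rule added without clone A1, with differences of 2.38, 2.49, 1.51 and 1.46. Cebpg was at 8.16 in MDEC and at 8.22 in clone A1.

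The amino acid genes went both ways in MDEC. Aldh18a1 (11.15 in MDEC and 9.73 to 10.41 in B16F10), Slc1a4 (9.01 and 6.59 to 8.27) and Slc7a3 (7.18 and 5.45 to 6.17) were higher. Mthfd1l (7.88 in MDEC and 8.77 to 10.10 in B16F10, 3.30-fold), Slc7a5 (10.32 and 11.52 to 11.74, 2.47-fold) and Phgdh (8.67 and 8.92 to 10.21, 2.11-fold) were lower. Psat1, low in clone A1 at 8.99, was at 10.79 in MDEC and so above all B16F10 arrays, though less than 2-fold. Shmt1 was at 7.99 in MDEC, between clone A1 and the rest. None of the 5 synthetases met the rule. Sars was at 12.27 in MDEC, above the 11.37 to 12.20 of B16F10.

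Slc7a3 and Vldlr, both higher in MDEC, lay in clone A1 within the range of the other B16F10 arrays. The comparisons of the PECAM1+ clones with clone A1 and of MDEC with B16F10 use the same B16F10 arrays, so no overlap of their calls is given.

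**Figure D4:**
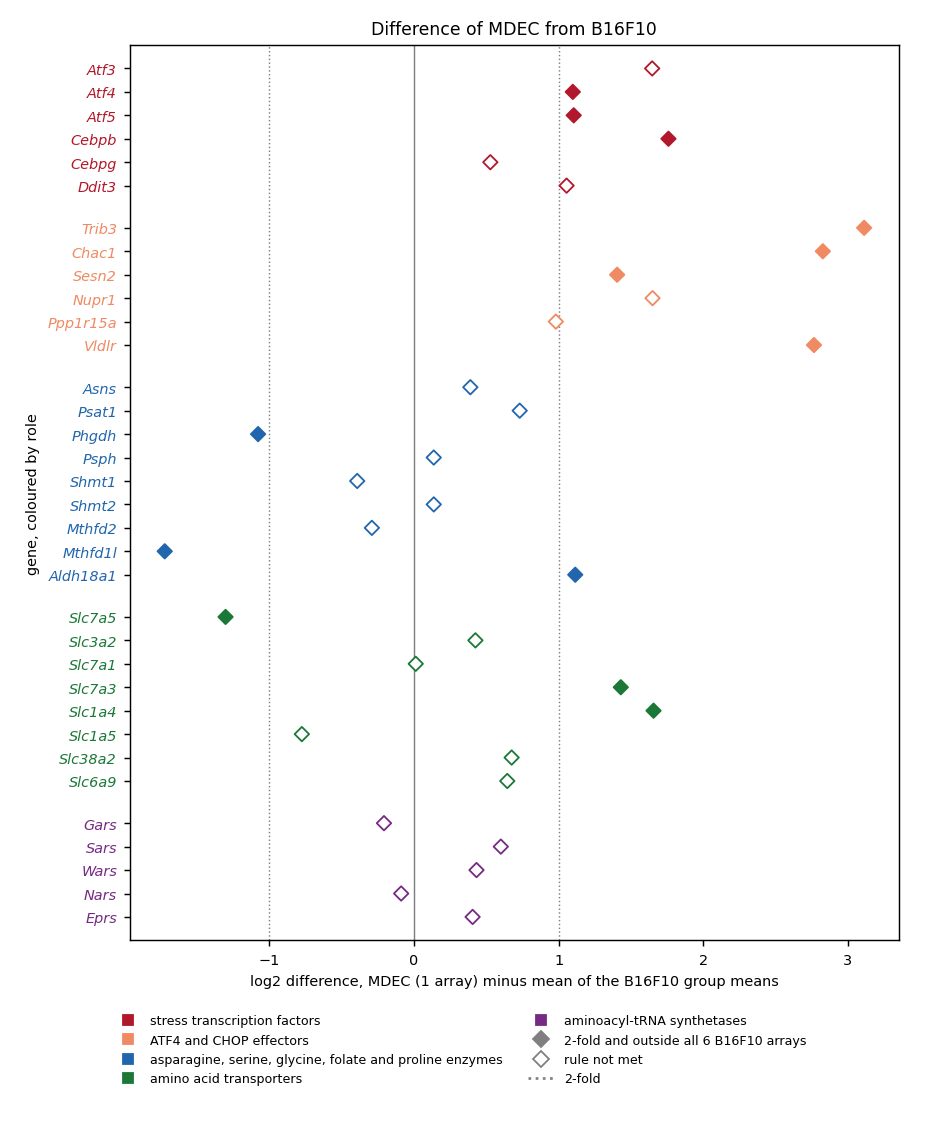
Log2 difference of MDEC (1 array) from the B16F10 centre, the average of the PECAM1+ and PECAM1− means (x axis), for each member (y axis, coloured by role), filled where MDEC is 2-fold or more away and outside all 6 B16F10 arrays. Trib3 (3.11), Chac1 (2.83) and Vldlr (2.77) are farthest to the right and Mthfd1l (−1.72) farthest to the left.

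In the further pathway genes, 11 of 76 were higher (6.40% of all genes) and 6 lower (6.86%) in MDEC by the same rule. Their median difference was 0.01. Slc7a11 was at 11.62 in MDEC and at 5.80 to 11.41 in B16F10 (3.37), and Gadd45a at 10.64 in MDEC and 7.19 to 9.63 in B16F10 (2.67). Mthfd2l (8.78 in MDEC and 5.65 to 6.26 in B16F10) and the cysteinyl-tRNA synthetase gene Cars (10.04 and 8.51 to 8.84) were higher. Prodh (7.07 in MDEC and 8.25 to 10.22 in B16F10), Slc6a6 (10.05 and 10.55 to 11.95) and Slc7a8 (5.55 and 6.14 to 7.57) were lower. Eif2ak3 and Eif2ak1 differed by −0.55 and −0.32, Rars by 0.91, and Mars2 and Rars2 by −0.88 and −0.60, none of which reached 2-fold.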

How the data were processed

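The deposited values are log2 expression values, 1 for each of 35557 probe sets and array, and Partek is named in the submitters' processing notes. Its version and the summarisation, background correction and normalization were not given in the sources used here. The log2 scale was inferred: values lay between 1.39 and 13.5 and array medians between 6.12 and 6.18. Signal over background is unknown, and precision is limited by how few arrays there are. Identical values in a pair of B16F10 arrays occurred for 10140 genes and 4 members, which can make a spread too small.

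Genes were named through the platform annotation, where 21789 probe sets carried 1 symbol, 1621 several and 12147 none. Of the single-symbol ones, 21698 matched the gene table of GRCm38.p6 by Entrez identifier. Each of 19938 genes was represented by its probe set of highest mean value. Differences were tested across all genes with limma 3.58.1 in R 4.3.3 (lmFit, eBayes with trend, two-sided, Benjamini-Hochberg adjustment, threshold 0.05), and the script was tested on simulated data. The labels do not say that samples came from separate cultures, so p-values measure only a spread among samples that may be technical. Alternatives were other normalizations, a filter on dim genes, other eBayes settings, the mean of probe sets, array weights and leaving out each sample. Values in every array are given for members past the threshold and 2-fold apart and for some others singled out after their values were seen. From each further list, up to 4 genes with the largest difference from clone A1 and up to 2 for MDEC were named. Members and lists were chosen with earlier results of these data known.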

Additional observations from a re-analysis of the deposited data

Results flagged for a closer look

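Each member was examined among the 4 PECAM1+ clones for a clone far from the other 3, and 2 of 34 had one, where chance gives about 1 in 20. Vldlr was at 4.82 in clone A4 and at an identical 4.94 in the other 3 clones, a gap of 0.11 log2 units that rests on a value repeated between arrays. Gars, the glycyl-tRNA synthetase gene, was at 11.05 in clone A4 and at 11.19 to 11.22 in the other clones. Both gaps are small beside the differences from MDEC or clone A1 given for other members.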

How the results depend on the processing

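Against both PECAM1− samples, the genes called numbered 2, and 7 with quantile normalization, 6 with median centring, 5 without dim genes, 5 with robust eBayes and 1 with array weights. Leaving out a sample gave 1 to 4089 genes, 0 to 5 members higher and 0 to 16 lower, the upper ends being those without parental cells. The difference of Nupr1 was −2.85 without parental cells (adjusted p = 0.0235) and turned to 0.49 without clone A1 (0.839). Against parental cells, 7 genes were called with median centring and 14 without dim genes, and 0 to 1 when a clone was left out. Against clone A1, leaving out a clone gave 2108 to 3526 genes, 2 to 5 members higher and 7 to 9 lower. In clone A1 against parental cells it gave 1340 to 2777 genes, 3 to 8 members higher and 1 to 4 lower. Fewer clones leave fewer degrees of freedom. Of the 21 members called against clone A1, 6 passed under all 10 alternatives (Cebpg, Sesn2, Psat1, Mthfd1l, Slc3a2 and Sars), and of the 15 called between clone A1 and parental cells, 3 did (Psat1, Slc3a2 and Sars). None changed sign, but leaving out a clone could not have changed one, so those alternatives do not test the sign. Clone A1 minus parental cells is a difference between single arrays. Without a clone only its spread changes, and Atf3 stayed at 2.92 each time. In the comparison with clone A1, that clone lay outside the range of the PECAM1+ clones for every called member. At 4-fold, 943 genes, 3 members higher and 0 lower met the rule for MDEC. No paired analysis was possible because the labels give no replicate numbers.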

Other observations

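The probe sets that carry a member's symbol beside another gene's were left out of the counts. That annotated to Aars and Exosc6 was at 9.60, 9.70, 9.70 and 9.49 in clones A2 to A5, at 10.47 in clone A1, at 9.74 in parental cells and at 9.94 in MDEC, so clone A1 was its highest array. That annotated to Phgdh and the predicted gene Gm6756 was at 10.81, 10.92, 10.49 and 10.98 in clones A2 to A5, at 9.74 in clone A1, at 10.62 in parental cells and at 10.00 in MDEC. It placed clone A1 below the other B16F10 arrays, as the probe set of Phgdh alone did. It placed MDEC within the B16F10 range, whereas the probe set of Phgdh alone placed MDEC below every B16F10 array. Signal from the 2 genes cannot be told apart in the shared probe set.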
